A study of Mus musculus with 37 samples.

Results

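The inflammatory cytokines of the interleukin-1 and interleukin-6 families described here are 9 genes: Il1a, Il1b, Il1rn, Il33 and Il18 of the first family, and Il6, Osm, Lif and Il11 of the second. They were taken by symbol from a table of read counts for 39017 genes in 37 bulk tumours, and all 9 had at least 5 counts in every tumour. The tumours grew for 3 weeks under the skin of C57BL/6 mice that received no treatment, each from an implanted clone of mouse pancreatic tumour cells. Their T cell phenotype is labelled high for 15 tumours (7 clones), low for 15 (7 clones) and intermediate for 4 (2 clones), and 3 tumours have none. The sources used here give neither the genotype of the tumour cells nor the way the phenotype was measured. Clones are named as in the sample titles, and the plots leave out the prefix of these names. The series set out to compare the T cell high with the T cell low tumours.

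Interleukin-1α and interleukin-1β signal through a shared receptor, and the product of Il1rn occupies that receptor without activating it. Interleukin-33 is stored in nuclei and released from damaged cells, while interleukin-1β and interleukin-18 are made as precursors that caspase-1 cuts. Interleukin-6, oncostatin M, leukaemia inhibitory factor and interleukin-11 each bind a receptor of their own and signal through gp130, the product of Il6st, to JAK kinases and STAT3. In pancreatic tumours these cytokines are known from neutrophils, macrophages, inflammatory fibroblasts and the tumour cells themselves.

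The promoters of 3 cytokines that varied together over the clones are shown because the transcription factors NF-κB and AP-1 are known regulators of this group. Each is the 250 bases before the RefSeq transcription start, 5′ to 3′ on the strand of the gene, in build GRCm38.p6. Capitals mark matches to the NF-κB consensus motif or to the AP-1 motif TGANTCA on either strand.
Il6, chr5:30012864-30013113, plus strand: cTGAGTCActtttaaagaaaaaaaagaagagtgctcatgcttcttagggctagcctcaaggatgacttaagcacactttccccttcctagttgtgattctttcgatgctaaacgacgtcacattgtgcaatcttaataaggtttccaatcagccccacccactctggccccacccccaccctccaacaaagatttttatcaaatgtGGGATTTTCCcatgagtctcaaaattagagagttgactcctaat
Il1a, chr2:129309973-129310222, minus strand: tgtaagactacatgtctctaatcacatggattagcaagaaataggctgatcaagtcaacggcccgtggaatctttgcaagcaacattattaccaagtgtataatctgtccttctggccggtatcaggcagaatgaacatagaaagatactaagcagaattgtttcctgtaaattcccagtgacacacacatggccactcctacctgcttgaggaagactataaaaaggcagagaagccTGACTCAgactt
Il1b, chr2:129371140-129371389, minus strand: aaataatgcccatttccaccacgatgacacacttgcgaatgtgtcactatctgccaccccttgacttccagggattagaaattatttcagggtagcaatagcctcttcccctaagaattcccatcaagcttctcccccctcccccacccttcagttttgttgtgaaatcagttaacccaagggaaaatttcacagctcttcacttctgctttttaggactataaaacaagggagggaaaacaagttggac
The Il6 window holds a match to the NF-κB consensus that begins 44 bases before the start and an AP-1 match at its far end. The Il1a window holds an AP-1 match that begins 12 bases before the start, and these 250 bases of Il1b hold neither motif. RefSeq windows from 250 bases before to 50 after a start were found for 8 of the 9 cytokines, 12 windows in all. The NF-κB consensus was in 2 of the 12 (Il6 and Lif) and in 8.46% of all 32851 such windows. The AP-1 motif was in 5 of the 12 (Il1rn, Il1a, Il6, Il11 and Lif) and in 7.81% of all windows. Motifs named C/EBP, STAT and CRE were also sought. C/EBP was in 7 of the 12 and in 40.7% of all windows. STAT was in 0 of the 12 and in 8.3% of all windows, and CRE in 0 and in 1.79%. Windows of Il1rn overlap, so the 12 are not all separate. A match is a description of the letters and shows neither binding nor use of a site.

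The libraries of the 34 tumours with a phenotype held 7.39 to 102.3 M counts, with a median of 31.8 M. Transcripts of liver and heart (Myh6, Myh7, Cps1 and Serpina3k, summed) were at 257.7 to 5922 CPM (read counts scaled to the total of their library) in 17 of these libraries and at no more than 0.539 CPM in the other 17. Nearly all libraries that held them were the first-numbered tumour of a clone, and the labels do not say where these transcripts come from. Genes of ductal epithelium, which mark this tumour type, summed to 3624 to 10920 CPM. In 4 libraries, of the high clones bulk_2838c3, bulk_6499c4 and bulk_6555c3 and the low clone bulk_6419c5, the liver and heart sum was over 5000 CPM. Across these libraries the cytokines, the only genes compared in this way, had similar levels. Their highest level was 1.26 (Lif) to 1.77 (Il1rn) times their lowest there, whereas it was 2.14 (Il11) to 19.2 (Il18) times the lowest in the other 5 tumours of the same clones. Differences between phenotypes are therefore given for all libraries and for the 17 libraries without liver and heart transcripts, which leave 7 high, 6 low and 2 intermediate clones. Since tumours of a clone grew from the same cells, their counts were summed and the clone was the replicate. A sum weights each tumour by its depth, so over all libraries the classes with and without these transcripts mix unequally between clones. Clone bulk_7160c5 had 102.3 M counts with them and 40.3 M without, and bulk_6499c3 had 7.39 M and 33.3 M. The labels do not say whether clones came from separate mice. The p-values of phenotype differences on clone sums measure the spread between these clones. Those from models with a term for each clone measure the spread between tumours within clones.

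Divided by the joint length of all their annotated exons, the cytokines differed widely in median level across the 17 libraries without liver and heart transcripts. Il1b led at 93.1 CPM per kb, followed by its antagonist Il1rn at 35.5, Il33 at 30.3, Osm at 11.3 and Il1a at 10.2 CPM per kb. Lif was at 7.11, Il18 at 5.05, Il6 at 0.689 and Il11 at 0.414 CPM per kb. By this measure Il1b was the most abundant and the name-giving Il6 among the least abundant of the group. Before the division Il1rn lay above Il1b in these libraries, with medians of 196.4 and 177.5 CPM. Over all 34 libraries these medians were 133 and 137.2 CPM. Over all 34 libraries Il1b was at 72 CPM per kb and Il33 (31.7) lay above Il1rn (24.03). All levels that follow are CPM of total counts per tumour and are not divided by length.

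**Figure D1:**
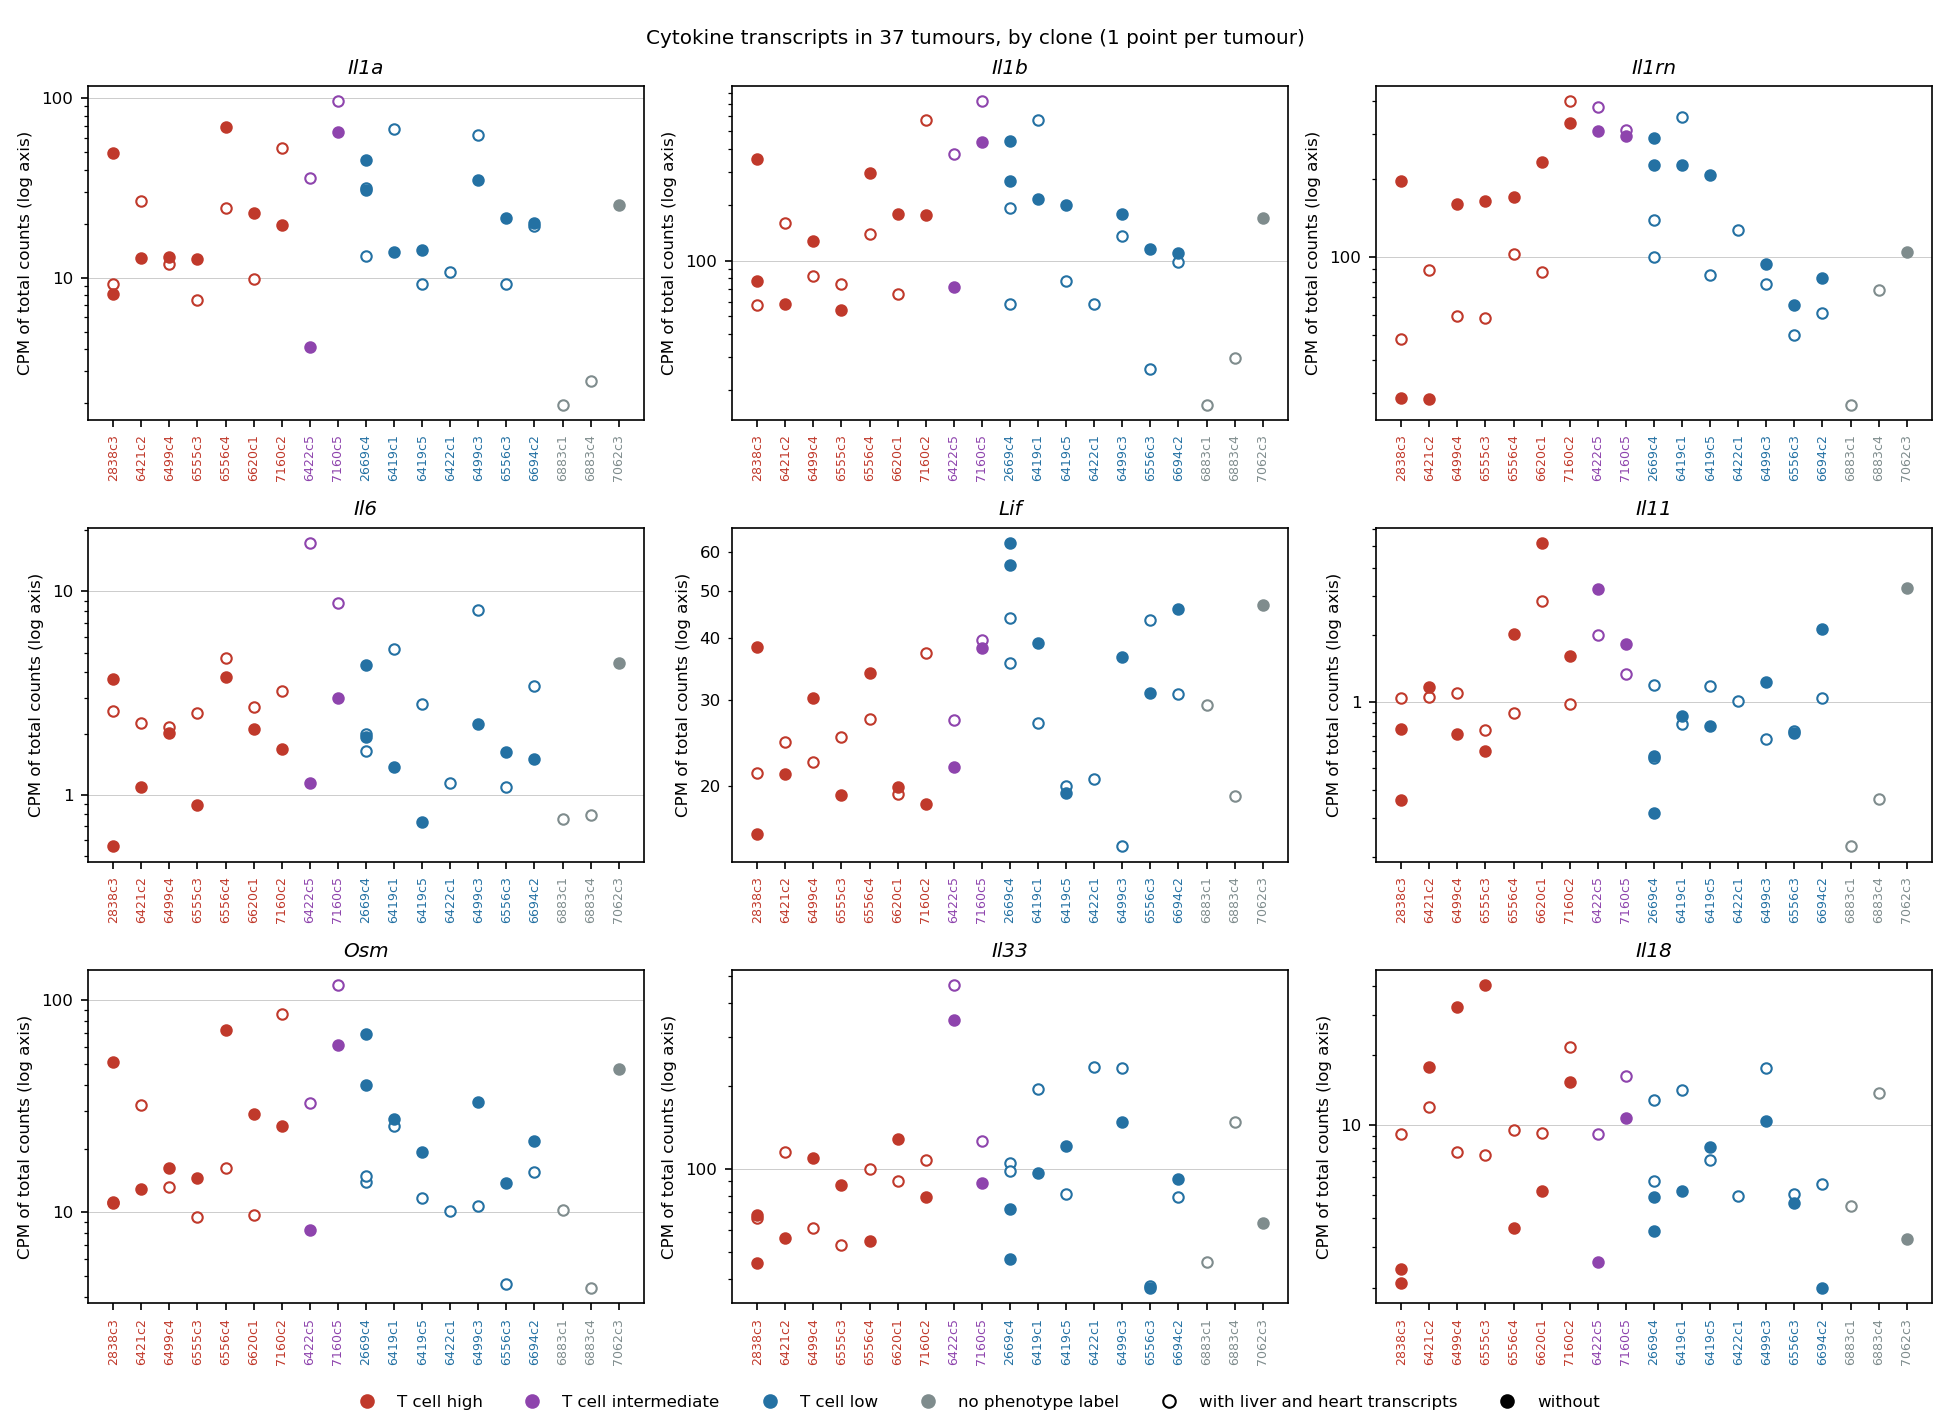
Each panel shows 1 cytokine in all 37 tumours, with the clone on the horizontal axis and CPM of total counts on a logarithmic vertical axis. Colours give the T cell phenotype, open circles the libraries with liver and heart transcripts and filled circles those without. Points of high and low clones overlap for every cytokine, and Il33 is highest in intermediate clone bulk_6422c5.

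No cytokine passed the threshold between T cell high and T cell low clones. In edgeR's quasi-likelihood test over all libraries, 0 of the 9 had an adjusted p under 0.05, as had 0% of the 20348 genes tested, and the smallest adjusted p of any gene was 0.659. At an unadjusted p under 0.05 there was 1 of the 9 cytokines, Il18, against 7.45% of all genes. Without the libraries that held liver and heart transcripts, 0 of 9 cytokines and 0% of 17905 genes passed. There 2 of 9 cytokines, Il18 and Lif, had an unadjusted p under 0.05, against 6.52% of all genes. DESeq2 likewise called 0 of the 9 in both sets. The median log2 difference (high minus low) of the 9 was 0.13 over all libraries and 0.15 without those libraries, where the medians of all genes were -0.000129 and -0.00284.

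The agonists of the interleukin-1 receptor did not differ detectably between the phenotypes. Il1b, made mostly by activated myeloid cells, was at 54.3 to 354 CPM in the 8 high tumours without liver and heart transcripts (median 152) and at 110 to 442 CPM in the 7 low tumours (median 200). The ranges overlapped over most of their length, and the high tumours of clones bulk_6421c2 and bulk_6555c3 were the lowest of both groups. The log2 difference was -0.25 (SE 0.445, adjusted p 0.949 by edgeR) there and 0.13 (SE 0.468, adjusted p 0.959) over all libraries. Il1a, which also acts as an alarm signal from dying cells, was at 8.16 to 69.2 CPM in those 8 high and 13.9 to 45 CPM in those 7 low tumours. The highest value belonged to high clone bulk_6556c4 and the lowest to high clone bulk_2838c3, so the high tumours enclosed the low ones. Its log2 differences were 0.15 (SE 0.534) and, over all libraries, 0.07 (SE 0.418). Both genes overlap an annotated antisense gene, Gm14023 at Il1a and Il1bos at Il1b, and the labels give no strand setting for the counting.

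The receptor antagonist Il1rn was at 28.3 to 332 CPM in the high and 65.6 to 288 CPM in the low tumours without liver and heart transcripts. High clone bulk_7160c2 had the highest level and high clone bulk_6421c2 the lowest. The log2 difference was 0.16 (SE 0.429, adjusted p 0.969 by edgeR) and 0.18 (SE 0.398, adjusted p 0.939) over all libraries.

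Il18 was the cytokine with the largest difference between high and low clones, although it did not pass the threshold. In libraries lacking liver and heart transcripts the high tumours stood at 2.1 to 40.3 CPM with a median of 10.3 CPM, and the low tumours at 1.99 to 10.4 CPM with a median of 4.91 CPM. The high clones bulk_6555c3 (40.3 CPM), bulk_6499c4 (32.4 CPM), bulk_6421c2 (17.9 CPM) and bulk_7160c2 (15.4 CPM) lay above every low tumour. The high clones bulk_2838c3, bulk_6556c4 and bulk_6620c1 lay among the low ones, at 2.1 to 5.21 CPM. The log2 difference was 1.52 (SE 0.62, unadjusted p 0.027, adjusted p 0.746 by edgeR) and 1.07 (SE 0.388, unadjusted p 0.0139, adjusted p 0.659) over all libraries. An exact two-sided permutation test of the clone values gave p = 0.169 and p = 0.0723. In libraries with liver and heart transcripts Il18 was at 7.43 to 21.8 CPM in the 7 of high clones and at 4.99 to 17.7 CPM in the 8 of low clones, ranges that overlapped over most of their length. The log2 difference within these libraries was 0.25 and did not pass, and the 2 high clones with the highest levels above were at 7.43 and 7.69 CPM there. The Il18 gene (chr9:50554827-50581840, GRCm38, plus strand) overlaps Tex12 and, over 355 bases, Bco2 on the other strand, and reads of overlapping genes cannot be told apart here.

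Il33 was at 45.6 to 128 CPM in the high and 36.9 to 148 CPM in the low tumours without liver and heart transcripts. Its log2 difference was -0.18 (SE 0.342, adjusted p 0.953 by edgeR) and -0.51 (SE 0.344, adjusted p 0.721) over all libraries, where low clone bulk_6422c1 reached 234 CPM. That tumour has liver and heart transcripts and is the only one of its clone.

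In the interleukin-6 family, Lif was the gene that tended lower in high clones. Lif, a cytokine that acts through its own receptor and gp130, was at 15.9 to 38.5 CPM in the 8 high tumours without liver and heart transcripts, with a median of 20.5 CPM. It was at 19.4 to 62.7 CPM in the 7 low tumours, with a median of 39.2 CPM. The low tumours of clone bulk_2669c4 held the highest values (56.7 and 62.7 CPM), and the low clones bulk_6419c5, bulk_6556c3 and bulk_6499c3 (19.4, 30.9 and 36.7 CPM) lay within the high range. The log2 difference was -0.67 (SE 0.249, unadjusted p 0.0164, adjusted p 0.711 by edgeR), and an exact permutation test of the clone values gave p = 0.0449. Over all libraries the log2 difference was -0.36 (SE 0.203, adjusted p 0.688), with an exact permutation p of 0.174. None of these is adjusted for the other cytokines except the edgeR values, which are adjusted over all genes.

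Il6 itself was scarce, and no difference between the phenotypes could be detected. It was at 0.557 to 3.81 CPM in the high and 0.736 to 4.34 CPM in the low tumours without liver and heart transcripts, and the log2 difference was 0.21 (SE 0.385, adjusted p 0.952 by edgeR) and 0.09 (SE 0.291, adjusted p 0.958) over all libraries. Osm, made mostly by neutrophils and macrophages, was at 11.1 to 72.8 CPM in these high and 13.7 to 69.5 CPM in these low tumours. Its log2 difference was 0.08 (SE 0.478, adjusted p 0.99) and 0.58 (SE 0.432, adjusted p 0.746) over all libraries, where leaving out high clone bulk_7160c2 gave 0.18. Il11, known for its part in fibrosis, was at 0.362 to 5.18 CPM in these high and 0.316 to 2.13 CPM in these low tumours, with the highest value in high clone bulk_6620c1. Its log2 difference was 0.73 (SE 0.547, adjusted p 0.853) and 0.62 (SE 0.391, adjusted p 0.71) over all libraries. Without bulk_6620c1 these Il11 values were 0.13 and 0.06. In bulk tumours, fewer cells that make a cytokine and less RNA per cell cannot be told apart.

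**Figure D2:**
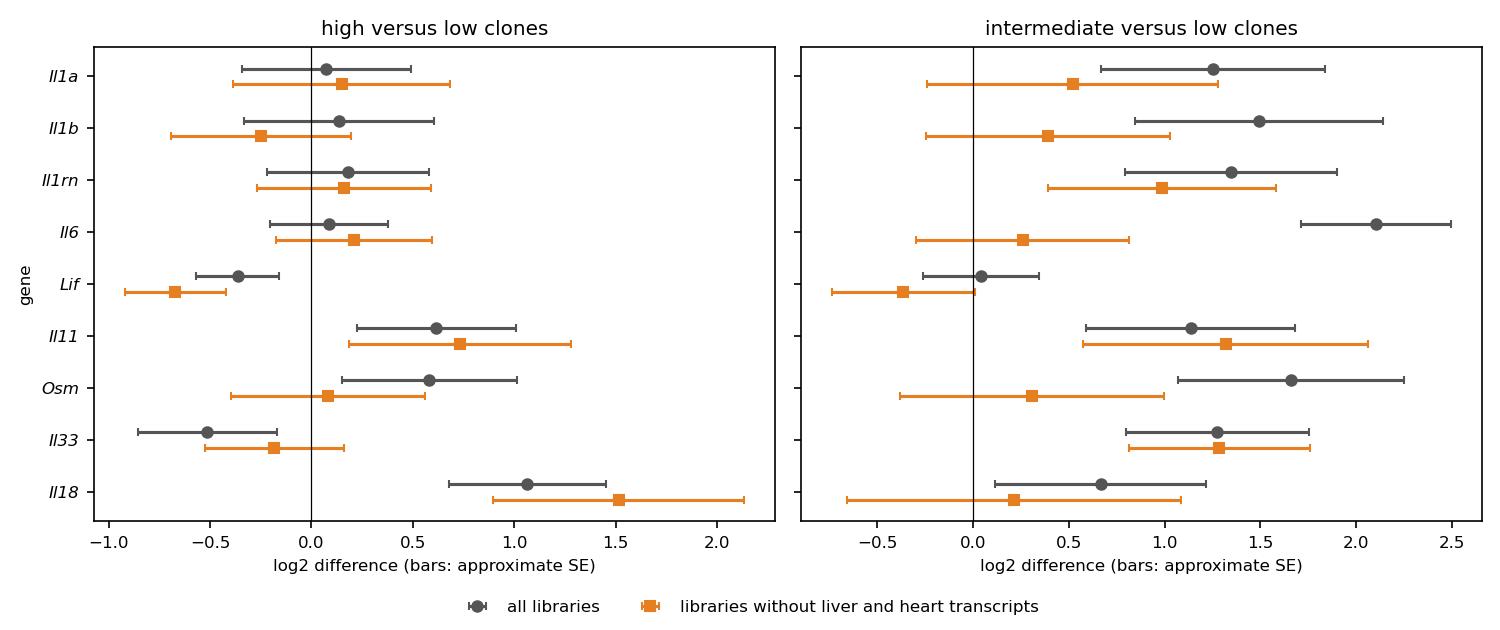
Points give the log2 difference of each cytokine between phenotypes, high minus low on the left and intermediate minus low on the right, and bars the approximate SE. Grey circles are all libraries and orange squares the libraries without liver and heart transcripts. For intermediate clones the Il6 point moves from 2.11 to 0.26 between the library sets, while the Il33 point stays at 1.28 and 1.29.

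Against the low clones, the 2 intermediate clones had higher levels of most cytokines when all libraries were used, with 0 of 9 past the adjusted threshold. All 9 log2 differences were above 0, with a median of 1.28 against 0.03 for all genes. At an unadjusted p under 0.05 there were 6 of the 9 (Il1a, Il1b, Il1rn, Il6, Osm and Il33), against 16% of all genes, while 0% of genes passed the adjusted threshold. Without intermediate clone bulk_7160c5 the log2 differences over all libraries fell to 0.09 for Il1a, 0.31 for Osm and 0.03 for Il18. Il6 had the largest difference, 2.11 on the log2 scale (SE 0.392, unadjusted p 5.25e-05, adjusted p 0.132 by edgeR), and ranked 6 of 20348 genes by p. DESeq2 called Il6, and so did edgeR without high clone bulk_7160c2 (log2 difference 2.08). With the tumour number as a replicate block Il33 was called (log2 difference 1.28). The Il6 level was 17.3 CPM in the first tumour of clone bulk_6422c5 and 8.78 CPM in that of bulk_7160c5, both with liver and heart transcripts. In the tumours of the same clones without them it was 1.14 and 3 CPM. The first values were above all 15 low tumours (highest 8.12 CPM) and the second pair lay inside the low range.

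Without the libraries that held liver and heart transcripts, the Il6 difference between intermediate and low clones was 0.26 (SE 0.556, adjusted p 0.981 by edgeR). The median log2 difference of the 9 cytokines was 0.39 there, against -0.00601 for all genes. At an unadjusted p under 0.05 there was 1 of the 9, Il33, against 6.27% of all genes, and 0 of 9 and 0% of genes passed the adjusted threshold. The Il33 log2 difference was 1.29 (SE 0.472, unadjusted p 0.0153, adjusted p 0.672). It rested on clone bulk_6422c5, at 346 CPM, since clone bulk_7160c5 was at 89 CPM and leaving out bulk_6422c5 gave a log2 difference of -0.08. Other measures moved with this comparison. The liver and heart sum was 257.7 to 290.2 CPM in the 2 intermediate and 1508 to 5894 CPM in the 8 low libraries that held these transcripts. All 12 macrophage and monocyte genes had log2 differences above 0 over all libraries (median 1.12), as had 12 of 12 granulocyte genes (median 0.75), 10 of 10 fibroblast genes (median 1.14) and 11 of 11 T cell genes (median 2.25). In libraries lacking liver and heart transcripts, 5 of 12 granulocyte genes had log2 differences above 0 (median -0.03), as had 12 of 12 macrophage and monocyte genes (median 0.63), 10 of 10 fibroblast genes (median 0.84) and 11 of 11 T cell genes (median 1.72). Their part in the cytokine values was not tested.

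Differences between individual clones were tested against the spread between tumours of a clone, so their calls cannot be ranked against those between phenotypes. A model of single tumours with a term for each clone and one for the liver and heart transcripts gave 4 of the 9 cytokines an adjusted p under 0.05 for differences among the 16 clones, against 35.1% of 18593 genes. These were Il33 (F 10.03, adjusted p 0.00013 by edgeR), Il11 (F 4.23, adjusted p 0.00867), Il1rn (F 3.64, adjusted p 0.0164) and Il18 (F 2.76, adjusted p 0.0468). The share is near that of all genes, so the group as a whole did not stand apart in this respect. Il33 was at 465 and 346 CPM in both tumours of clone bulk_6422c5 and at 234 CPM in the tumour of bulk_6422c1, whose name starts with the same number. The 2 tumours of low clone bulk_6556c3 were lowest, at 37.6 and 36.9 CPM, so the tumours of these clones lay together at the ends of the Il33 range. Il11 was at 2.83 and 5.18 CPM in clone bulk_6620c1, the highest of the tumours with a phenotype within each class of library, and at 1.99 and 3.22 CPM in bulk_6422c5. Without bulk_6620c1 Il11 did not pass (F 2.4). Il1rn was at 293 to 401 CPM in all 4 tumours of clones bulk_7160c2 and bulk_7160c5 and at 308 and 379 CPM in clone bulk_6422c5. Il18 no longer passed without any 1 of 10 clones, and neither Il1rn nor Il18 passed without the term for liver and heart transcripts. Lif, Osm, Il1b, Il1a and Il6 did not pass, with adjusted p-values of 0.0886 to 0.24.

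Clones whose names share their first number but whose phenotypes differ were compared in the same model. None of the 9 cytokines passed in any of the 4 comparisons, where 0.0807% of genes passed for bulk_6499c4 (high) minus bulk_6499c3 (low), 0% for bulk_6556c4 (high) minus bulk_6556c3 (low), 0% for bulk_7160c2 (high) minus bulk_7160c5 (intermediate) and 0.167% for bulk_6422c5 (intermediate) minus bulk_6422c1 (low). In this model only Il18 and Il1rn kept their direction, with log2 differences above 0 in all 4 comparisons. How many of all genes did so was not counted. The differences were 0.33 to 0.74 for Il18 and 0.22 to 1.29 for Il1rn. Within a class of library the direction was not always kept. With liver and heart transcripts, bulk_6499c4 was below bulk_6499c3 for Il18 (7.69 against 17.7 CPM) and Il1rn (59.2 against 78.6 CPM). Without them, bulk_6556c4 was below bulk_6556c3 for Il18 (3.63 against 4.62 CPM). The other comparisons of these cytokines within a class kept the direction. The directions of the other cytokines were not shared. Il33 had a log2 difference of -1.12 (SE 0.402) in the first and 1.03 (SE 0.401) in the second, and Il1a of -1.98 (SE 0.967) and 1.64 (SE 0.949). The largest difference was that of Il6 between bulk_6422c5 and bulk_6422c1, 3.19 (SE 1.25, adjusted p 0.432 by edgeR). The clone bulk_6422c1 has 1 library, at 1.14 CPM, and the tumours of bulk_6422c5 were at 17.3 and 1.14 CPM, so this Il6 value rests on 1 tumour. With at most 2 tumours per clone in these pairs, the SE of Il1b was 0.96 or more. Even Il1b differences of 1.70 (SE 0.986, bulk_6556c4 minus bulk_6556c3) and 1.99 (SE 1.3, bulk_6422c5 minus bulk_6422c1) did not pass.

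Within clones, Il6 was higher in libraries with liver and heart transcripts. The log2 difference was 0.81 (SE 0.327, adjusted p 0.0431 by edgeR), and Il6 was higher in 13 of the 15 clones that had both kinds of library. It was the 1 of 9 cytokines that passed, against 50.3% of all genes. Il1rn, with a log2 difference of -0.60 (SE 0.251, adjusted p 0.0521), and Osm, with -0.66 (SE 0.348, adjusted p 0.12), had lower values in these libraries, higher in 5 and 4 of 15 clones. Il18, with 0.54 (SE 0.284, adjusted p 0.123), was higher in 11 of 15 clones. The Il6 call was lost without any 1 of the 9 clones bulk_6419c1, bulk_6419c5, bulk_6421c2, bulk_6422c5, bulk_6499c3, bulk_6555c3, bulk_6694c2, bulk_7160c2 and bulk_7160c5, at log2 differences of 0.65 to 0.81. The within-clone difference did not pass a test between high and low clones for any cytokine, with adjusted exact permutation p-values of 0.877 to 0.938.

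**Figure D3:**
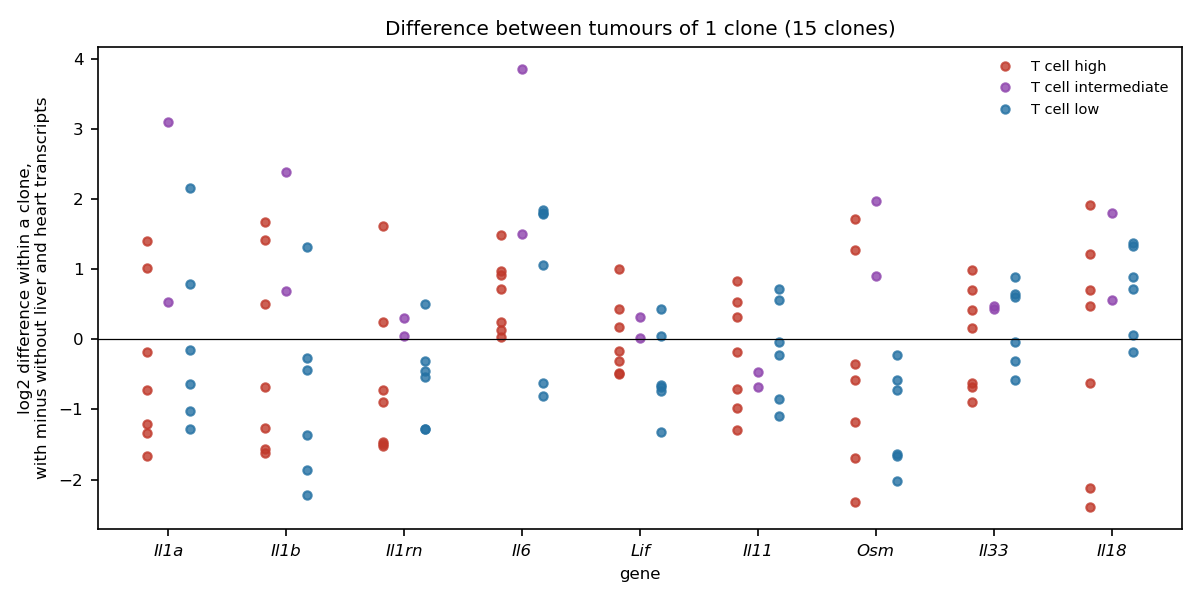
Each point is 1 of 15 clones and gives the log2 difference between its tumours with and without liver and heart transcripts, coloured by T cell phenotype. Il6 points lie above 0 in 13 clones, and those of the other cytokines lie on both sides of 0.

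Across the 15 clones, with libraries that held liver and heart transcripts left out, 4 cytokines varied together. The Pearson correlation of log2 CPM was 0.92 between Il1a and Osm, 0.89 between Il1b and Osm, 0.8 between Il6 and Osm, 0.79 between Il1a and Il6, 0.77 between Il1a and Il1b and 0.71 between Il1b and Il6. Lif was the nearest to this set, with 0.50 to 0.61. In these libraries the largest value between Il1rn, Il33, Il11 or Il18 and the 4 was 0.48, for Il1b and Il1rn, and Il1a and Il33 had the lowest value of all 36 pairs, -0.54. With all libraries, over 16 clones, the borders of the set were less clear. Il1rn was there at 0.772 with Il1b, 0.651 with Il6 and 0.616 with Osm, and Il33 at 0.552 with Il6, beside 0.677 for Il6 and Osm within the set. Il1a and Il33 were at 0.149 there. These values describe 15 clones that share the scaling of their libraries.

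**Figure D4:**
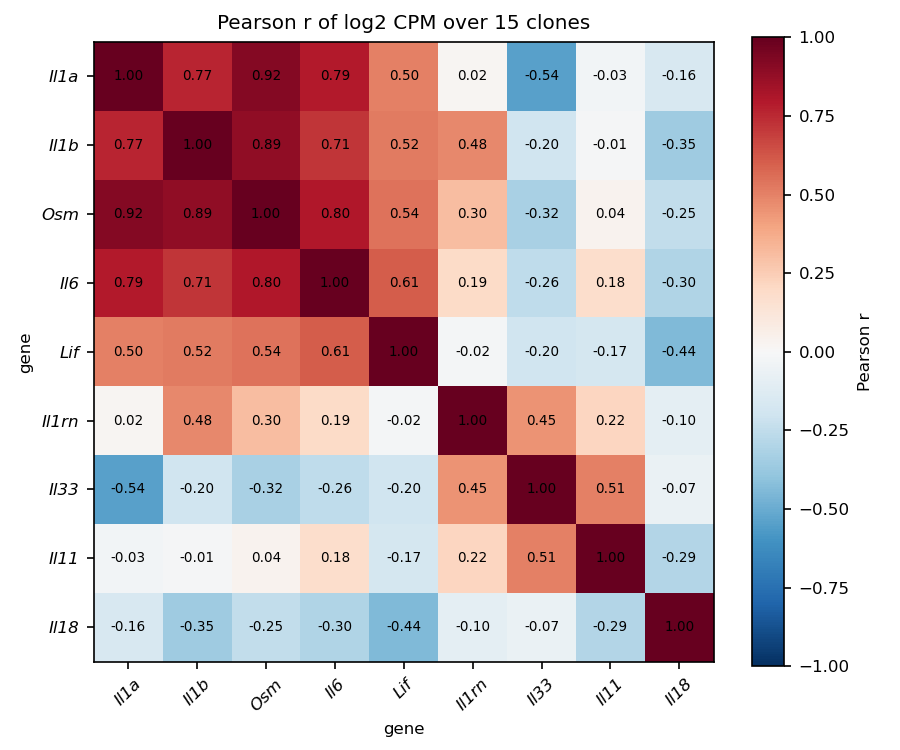
The colour and number in each cell give the Pearson correlation of log2 CPM between a pair of cytokines over 15 clones, from libraries without liver and heart transcripts. The block of high values at the upper left holds Il1a, Il1b, Osm and Il6.

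In the same libraries these 4 cytokines followed the genes of granulocytes. Their levels were related to the mean log2 CPM of 12 granulocyte genes (among them S100a8, Csf3r and Cxcr2) over the 15 clones, the only Pearson correlations of 36 tested that passed, with permutation p-values adjusted by the Benjamini-Hochberg method. Il1b had r = 0.916 (permutation p = 1e-05, the smallest that 100000 resamples can give, adjusted p 0.00036) and Spearman's rho = 0.889 (adjusted p 0.00054). Osm had r = 0.881 (permutation p = 4e-05, adjusted p 0.00072) and rho = 0.911 (adjusted p 0.00036). Il1a had r = 0.762 (permutation p = 0.00087, adjusted p 0.0104) and rho = 0.839 (adjusted p 0.0018), and Il6 had r = 0.692 (permutation p = 0.00406, adjusted p 0.0365) and rho = 0.714 (adjusted p 0.0328). Without the 2 clones farthest from the median of the granulocyte genes, r was 0.843 for Il1b, 0.9 for Osm, 0.8 for Il1a and 0.562 for Il6 (permutation p = 0.045).

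Within the 7 high clones alone r was 0.957 for Il1b, 0.943 for Osm, 0.901 for Il1a and 0.961 for Il6, with exact permutation p-values of 0.000595 to 0.00198. Within the 6 low clones r was 0.787 for Il1b (exact permutation p = 0.0667) and 0.762 for Osm (exact permutation p = 0.0736). It was 0.31 for Il1a and 0.132 for Il6 there (exact permutation p = 0.574 and 0.815). With all libraries r within the 7 low clones was 0.726 for Il1a (exact permutation p = 0.0855) and 0.845 for Il6 (exact permutation p = 0.0234), so these values depended on the libraries used. The granulocyte genes summed to 124.2 to 800.9 CPM in high and 231.7 to 724.2 CPM in low tumours without liver and heart transcripts. Of the 12 genes, 4 had a log2 difference above 0 between high and low clones and 8 below, with a median of -0.02. None passed, where 0% of all genes passed. All 12 were detected, Ly6g in some libraries only. In these libraries no relation of a cytokine with the macrophage and monocyte genes or the fibroblast genes passed. With all libraries, over 16 clones, more of the 36 Pearson correlations passed, and these were not only with granulocyte genes. The macrophage and monocyte genes were there related to Il1b (r = 0.746, adjusted permutation p 0.00641), Osm (r = 0.72, adjusted permutation p 0.0099), Il1a (r = 0.646), Il18 (r = 0.604) and Il1rn (r = 0.589). The fibroblast genes were related to Il6 (r = 0.665, adjusted permutation p 0.0282), Osm (r = 0.636), Il1b (r = 0.615), Il1rn (r = 0.61) and Il1a (r = 0.578). The granulocyte genes were related to Il1b (r = 0.84), Il6 (r = 0.811), Osm (r = 0.767), Il1a (r = 0.762) and Il1rn (r = 0.638). Clones bulk_7160c2 and bulk_7160c5 were farthest from the median of the macrophage and fibroblast lists. Without them r was 0.364 to 0.536 for these macrophage and 0.215 to 0.581 for these fibroblast relations. It was 0.6 to 0.784 for these granulocyte relations without their own 2 farthest clones. By rho the granulocyte relations passed, but of the others listed here only Il18 with the macrophage genes did (adjusted permutation p 0.00749). Whether granulocytes or other cells carried these transcripts was not tested.

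**Figure D5:**
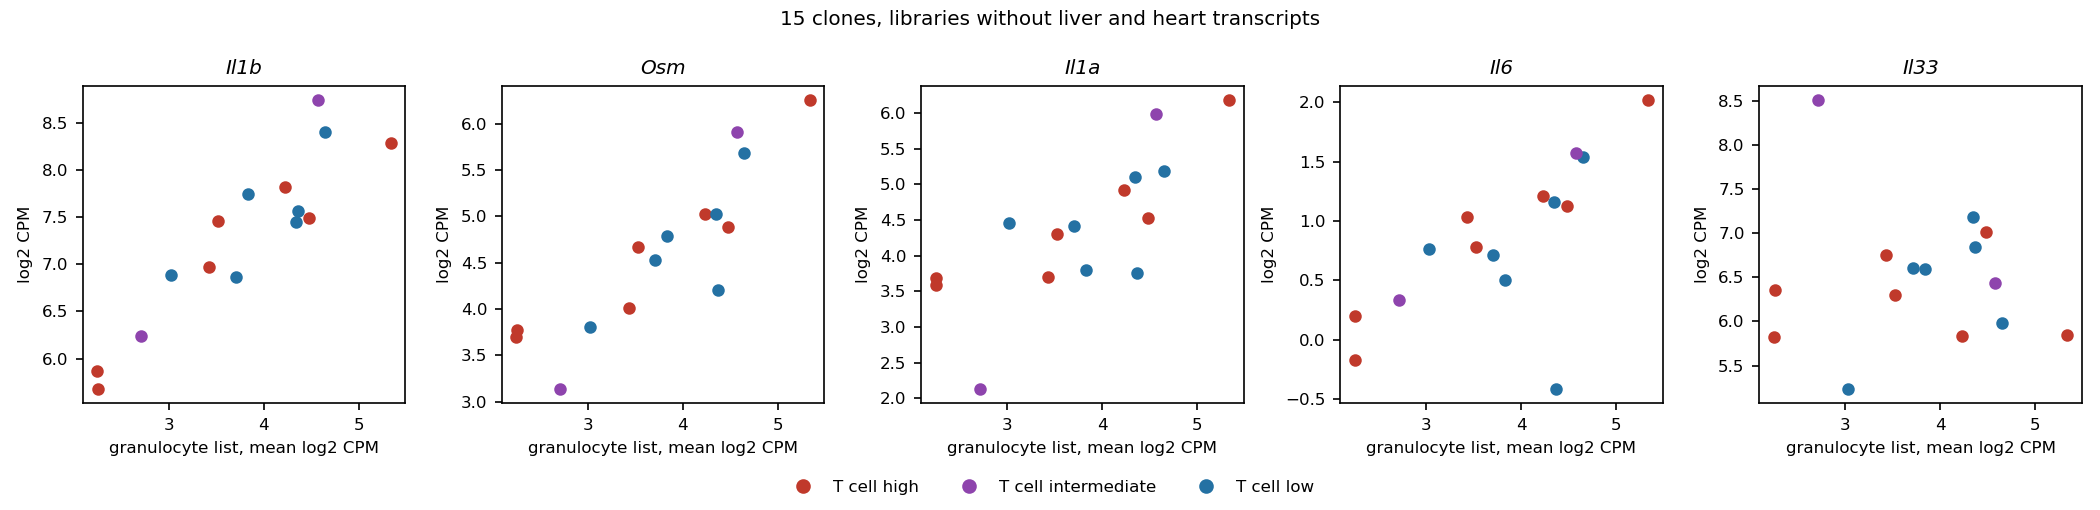
Each point is 1 of 15 clones, with the mean log2 CPM of 12 granulocyte genes on the horizontal and the log2 CPM of the cytokine on the vertical axis, coloured by T cell phenotype. Il1b, Osm, Il1a and Il6 rise with the granulocyte genes and Il33 does not, with r = -0.0863.

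In these libraries Il18 had its largest relation with the genes of ductal epithelium, r = 0.662 (permutation p = 0.0073, adjusted p 0.0526), which did not pass, while rho = 0.686 did (adjusted p 0.0443). With all libraries r was 0.578 (adjusted permutation p 0.0419) and rho 0.409 (adjusted p 0.199), and the relation with the macrophage and monocyte genes was larger, with r = 0.604 and rho = 0.762 (adjusted permutation p 0.00749). In libraries lacking liver and heart transcripts the ductal r was 0.479 within the 7 high and 0.81 within the 6 low clones (exact permutation p = 0.282 and 0.0486). Of the 10 ductal genes 0 passed between high and low clones there, where 0% of all genes passed, and 6 had a log2 difference above 0 (median 0.38). At an unadjusted p under 0.05 there were 3 of the 10, against 6.52% of all genes, and the smallest p was that of Esrp1, a splicing regulator of epithelial cells (log2 difference 3.76, SE 1.03). The part of the ductal genes in the Il18 values was not tested.

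The genes most like each cytokine over the 15 clones were taken from 12837 genes by Pearson correlation. Il1a was nearest to Cd274, the gene of the checkpoint ligand PD-L1 (0.934), Clec4e (0.929) and Zc3h12a, a ribonuclease that degrades cytokine mRNA (0.928). Il1b was nearest to Cd300lf (0.941), Cd244 (0.94) and H2-Q10 (0.939), and the last was -0.511 with all libraries. Osm was nearest to Gp49a (0.978) and Lilrb4 (0.961), a pair of near-identical genes whose counts are uncertain, and to Cass4 (0.954). Il6 was nearest to Irg1 (0.866), Il1f9, which encodes interleukin-36γ (0.84), and Clec4e (0.822). Clec4e was thus among the nearest genes of both Il1a and Il6.

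Outside that set the nearest genes were of other kinds. Lif was nearest to Vat1 (0.874), Rhbdf2 (0.825) and Dbn1 (0.822), and Il1rn to Cxxc4 (0.867), Pla2g2d (0.864) and Psd4 (0.851). Il33 was near to Aen (0.881) and Slc27a4 (0.826), and Il11 to Prkrir (0.865), Igf1r (0.822) and Rab6a (0.814). Il18 was nearest to Bco2 (0.918), the gene that overlaps it, and to Limk2 (0.896) and Galnt4 (0.889). The correlations are ranked from many genes over few clones and are given as a description.

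None of the 16 receptor genes passed between high and low clones in either set of libraries, where 0% of all genes passed. Among the 9 receptors and decoys of the interleukin-1 family the log2 differences over all libraries were -0.29 for Il1r1, the signalling receptor, -0.04 for Il1r2, its decoy, and -0.09 for Il1rap, the shared accessory chain. They were 0.07 for Il1rl1, the receptor of interleukin-33, -0.28 for Il18r1, -0.16 for Il18rap and 0.20 for Il18bp, the secreted inhibitor of interleukin-18. Il1rl2, the receptor of interleukin-36, had 0.36 and Sigirr, an inhibitory receptor, 0.44 (unadjusted p 0.0325, adjusted p 0.667 by edgeR). The list was balanced, with 4 of 9 differences above 0 and a median of -0.04.

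Among the 7 receptors of the interleukin-6 family, Osmr, a receptor chain of oncostatin M, had the largest negative difference, -0.78 (SE 0.307, unadjusted p 0.0219, adjusted p 0.664 by edgeR). Without the libraries that held liver and heart transcripts it was -0.70 (SE 0.333, unadjusted p 0.0522, adjusted p 0.763). Il27ra had 0.79 over all libraries (SE 0.29, unadjusted p 0.0142, adjusted p 0.659), the largest positive difference. The other values were 0.13 for Il6st, which encodes gp130, -0.04 for Il6ra, -0.10 for Lifr, 0.31 for Il11ra1 and 0.43 for Cntfr. Osmr was at 17.9 to 114 CPM and Il6st at 93 to 253 CPM in libraries lacking liver and heart transcripts, so both chains were well detected.

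No gene up- or downstream of the cytokines passed between high and low clones either, where 0% of all genes passed. Of 8 genes of maturation and release 0 passed, and the smallest unadjusted p belonged to Pycard, the inflammasome adaptor, over all libraries (log2 difference 0.49, SE 0.239) and to Casp8 without the libraries that held liver and heart transcripts (0.30, SE 0.118). Of 13 genes of signal transduction 0 passed, led by Irak2 (0.29, SE 0.157) and by Nfkb1 (-0.30, SE 0.159). Of 18 genes that respond to these cytokines 0 passed, and the medians were 0.07 and -0.06. The lowest unadjusted p in that list belonged in both sets to Cxcl1, a neutrophil chemokine, whose log2 difference was -1.67 (SE 0.6, adjusted p 0.711 by edgeR) without the libraries that held liver and heart transcripts. Ptgs2, the inducible cyclooxygenase, had -0.86 over all libraries (SE 0.317, adjusted p 0.659). Of the other ligands, Ctf1 (0.30, SE 0.335) led the 5 of the interleukin-6 family and Il1f6 (-0.67, SE 0.827) those of the interleukin-1 family, of which 2 of 5 passed the expression filter over all libraries.

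Markers of the cells and tissues that the tumours could hold gave 0 calls between high and low clones, where 0% of all genes passed. At an unadjusted edgeR p under 0.05 there were 8 of 11 T cell genes over all libraries, against 7.45% of all genes. In libraries lacking liver and heart transcripts there were 3 of 11, against 6.52%. Of the ductal genes there were 3 of 10 in each set. Over all libraries 11 of 11 T cell genes had a log2 difference above 0 (median 1.21), as had 7 of 10 ductal genes (median 0.35), 8 of 10 fibroblast genes (median 0.23), 7 of 12 granulocyte genes (median 0.07), 10 of 12 macrophage and monocyte genes (median 0.35) and 4 of 8 genes of mast cells, basophils and eosinophils (median 0.00575). In libraries lacking liver and heart transcripts the counts were 11 of 11 for T cells (median 0.72), 6 of 10 for ductal epithelium (median 0.38), 7 of 10 for fibroblasts (median 0.03), 4 of 12 for granulocytes (median -0.02), 9 of 12 for macrophages and monocytes (median 0.12) and 2 of 7 for the mast cell list (median -0.24). The gene with the smallest p of a list can go against the list. Over all libraries it was Cd3g for T cells (log2 difference 1.55), Cldn7 for ductal epithelium (2.10), Thy1 for fibroblasts (0.50), Cxcr2 for granulocytes (-0.36, against most of its list), C1qb for macrophages and monocytes (0.47) and Kit for the mast cell list (0.79). It was Vwf for endothelium (0.45), Dsg3 for skin epidermis (2.14) and Myl7 for liver and heart (1.22). Myl7 went against its list, in which 9 of 10 genes had a log2 difference below 0 (median -0.17). In the other set it was Cd8a (1.93), Esrp1 (3.76), Mmp9 for granulocytes (-0.46), Emcn for endothelium (0.20), Lor for skin epidermis (1.22) and Alb for liver and heart (-4.35). There Col6a3 (-0.34), Mrc1 (-0.22), Kit (0.73) and Lor (1.22) went against most genes of the fibroblast, macrophage, mast cell and skin lists. The part of these cells in the cytokine values was not tested.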

How the data were processed

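The deposited table holds whole-number read counts per gene, which the authors did not normalise, judged from the values. The submitters' processing notes name STAR, featureCounts and build mm10, and the sources used here give no versions, annotation or strand setting. Coordinates and exon lengths came from GENCODE M21 (GRCm38) and promoters from RefSeq (GRCm38.p6). The 9 cytokines, the 16 other gene lists, the sorting of libraries at 10 CPM of liver and heart transcripts and the tests were chosen with earlier results of these data known. All 9 cytokines are named, as are all receptor genes, the gene with the smallest p of each other list between high and low clones, and the 3 genes most like each cytokine, 1 of which is not reported here.

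Counts summed per clone were tested with edgeR 4.0.16 (R 4.3.3), by the two-sided quasi-likelihood test after TMM scaling and the default filter on low counts (by phenotype), adjusted over all genes tested by the Benjamini-Hochberg method at 0.05. SE is the absolute log2 difference divided by the square root of F and is approximate. Differences between clones were fitted on 34 single tumours. Correlations used log2 CPM with a prior count of 2. DESeq2 1.42.0, limma 3.58.1, other scalings, no filter, single tumours, the tumour number as a block and leaving out each clone were alternatives. The scripts were tested on simulated data. The labels do not say that a tumour number marks a batch, and the main fits have no block for it. Deviations had a median correlation of 0.333 between tumours both numbered 1, 0.209 between those with later numbers and -0.327 across, so equal numbers deviated together. Number 1 largely coincides with the libraries that held liver and heart transcripts.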

Additional observations from a re-analysis of the deposited data

Results flagged for a closer look

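Of 36 groups of clones examined for a value far from the others, 1 stood out, where chance alone marks about 1 in 20 groups. Among the 7 high clones without liver and heart transcripts, Il1rn was at 28.34 CPM in clone bulk_6421c2. On the log2 scale, on which the groups were examined, its gap to the next clone was 0.589 of the whole range. The first tumour of that clone, with liver and heart transcripts, held 89.1 CPM.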

How the results depend on the processing

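No cytokine was called between high and low clones in any alternative. Over all libraries, DESeq2 called 27 genes, single tumours with the clone ignored 38 and the replicate block 77, against 0 by edgeR on clones. Between intermediate and low clones 1 cytokine was called with DESeq2 (Il6, log2 difference 2.07), with the tumour number as replicate block (Il33, 1.28) and without clone bulk_7160c2 (Il6, 2.08), and 0 to 1 with each clone left out in turn. DESeq2 called 929 genes there, the replicate block 828, single tumours 421 and limma voom 130, against 0. In libraries without liver and heart transcripts DESeq2 called 39 genes for high against low and 23 for intermediate against low clones, against 0. Differences between clones were called for 2 cytokines without the library term (2549 genes against 6534), and for 2 to 4 without each clone. The library class was called for 0 to 2 without each clone, and 16 relations with marker lists passed with clone sums of all libraries, against 4.

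Some small differences changed sign. High minus low over all libraries, Il1a was -0.0815 with limma voom, -0.18 with single tumours, -0.17 with the replicate block and -0.50 with only libraries that held liver and heart transcripts. In that order Il1rn was -0.14, -0.0082, -0.012 and -0.051, and Il1b was -0.0876, -0.14 and -0.14 with limma voom, single tumours and the replicate block. Il6 was -0.10 with single tumours, -0.0603 with the replicate block and -0.23 with only libraries that held those transcripts. Without those libraries, Il1a was -0.10 with limma voom and -0.0399 as a difference of clone means, Il1rn -0.0771 with limma voom and -0.0484 with single tumours, and Osm -0.10, -0.13 and -0.0577 with limma voom, single tumours and clone means. Intermediate minus low, Lif was -0.0191, -0.14 and -0.10 with limma voom, single tumours and the replicate block over all libraries, and with limma voom on the others Il1a was -0.20, Il1b -0.019 and Osm -0.0225. Lif in bulk_6499c4 minus bulk_6499c3 was -0.0864 with limma voom and -0.0048 without the library term. Correlations over all libraries turned to 0.361 and 0.322 for Il33 with granulocytes and macrophages, 0.166 and 0.121 for Lif and Il11 with macrophages, 0.0363 for Lif with fibroblasts, and -0.0434 and -6.2e-05 for Il6 and Il11 with ductal genes. Without TMM scaling Il33 with ductal genes was 0.0304.

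Leaving out each clone gave, high minus low over all libraries, -0.18 to 0.25 for Il1a, -0.36 to 0.50 for Il1b, -0.26 to 0.46 for Il1rn and -0.12 to 0.20 for Il6. Without libraries that held liver and heart transcripts it gave -0.35 to 0.33 for Il1a, -0.0692 to 0.36 for Il1rn, -0.0529 to 0.42 for Il6 and -0.36 to 0.36 for Osm. Intermediate minus low it gave -0.28 to 0.27 for Lif and -0.0402 to 1.92 for Il33 over all libraries, and on the others -2.44 to 1.43 for Il1a, -1.33 to 1.16 for Il1b, -0.51 to 0.76 for Il6, -1.66 to 1.12 for Osm, -0.0824 to 1.99 for Il33 and -1.06 to 0.89 for Il18. For the library class it gave -0.27 to 0.0501 for Il1a. High minus low it gave 0.86 to 1.24 for Il18, 0.0633 to 0.75 for Il11 and 0.18 to 0.77 for Osm over all libraries, and 1.16 to 1.76 for Il18 and 0.13 to 1.12 for Il11 on the others, while only libraries that held those transcripts gave 0.25 for Il18. The cause of these shifts was not tested. Depth limits Il11 and Il6 most, with medians of 33 and 62 counts per library against far more for the other cytokines.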

Other observations

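The 3 tumours without a phenotype label entered no comparison. The tumours of clones bulk_6883c1 and bulk_6883c4, both with liver and heart transcripts, held the lowest Il1a of all 37, at 1.96 and 2.65 CPM, and Il1b at 16.7 and 29.8 CPM. Their Il6 was at 0.761 and 0.798 CPM and their Il11 at 0.223 and 0.363 CPM. The granulocyte genes summed to 95.5 to 104.8 CPM in this pair and the T cell genes to 72.6 to 171.6 CPM. The tumour of clone bulk_7062c3, without liver and heart transcripts, held Il1a at 25.5, Il1b at 170, Il6 at 4.44, Osm at 47.6 and Il11 at 3.24 CPM, with granulocyte genes at 420.8 CPM.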
